A study of Arabidopsis thaliana with 12 samples.

Results

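GH3.1 (AT2G14960), GH3.2 (AT4G37390), GH3.3 (AT2G23170) and GH3.5 (AT4G27260) encode auxin-conjugating enzymes of Arabidopsis thaliana. They were chosen by gene identifier, with earlier results of these data known. All 4 were found among the 12905 genes of the count table. RNA came from whole seedlings of wild type Col-0, 2 weeks old, which were held for 2 h at 30 µE in water with 0, 1, 10 or 100 µM cycloheximide (CHX), which stops translation by ribosomes in the cytosol. With 3 replicates at each of the 4 doses, 12 bulk MARS-seq libraries were sequenced, whose reads fall at transcript 3′ ends. The labels do not state whether replicates were separate cultures, so the p-values cover the spread among these samples alone, which may be technical. The 0 µM libraries serve as control in 3 of the 6 comparisons, and these 3 are therefore not independent of each other.

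GH3 proteins are acyl acid amido synthetases, which join a plant hormone to an amino acid. The group described here uses indole-3-acetic acid (IAA), the main auxin, and its conjugates are either inactive stores or on the way to breakdown. GH3 genes of this group are known as early auxin response genes, transcribed when Aux/IAA repressors are degraded and release ARF transcription factors. Many early auxin genes are also known to gain transcript when protein synthesis is blocked, a response usually ascribed to short-lived repressors. GH3.5, also named WES1, acts on salicylic acid as well.

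In the RefSeq annotation of TAIR10.1, GH3.1 lies at chr2:6451319-6453797 and GH3.3 at chr2:9863855-9866562, both on the minus strand. GH3.5 lies at chr4:13653579-13656285 and GH3.2 at chr4:17579618-17582022, both on the plus strand. Each gene has 1 transcript of 3 exons and overlaps no other annotated gene. Over aligned coding bases GH3.2 and GH3.3 were the closest pair of the 4, with 81.4% identity, and GH3.1 and GH3.5 the most distant, with 66.8%. Since MARS-seq reads 3′ ends, the last 500 bases of the transcript models were compared. Between members the longest exact run in common was 26 bases, for GH3.2 and GH3.3. GH3.2 had a run of 56 bases in common with GH3.4 (AT1G59500), and GH3.5 a run of 42 bases with GH3.6 (AT5G54510). Neither GH3.4 nor GH3.6 was among the genes analysed here, and how reads from these stretches were assigned was not tested.

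The letters TGTCTC, the auxin response element bound by ARF factors, were found once in each of the 4 genes, on the coding strand, in the window from 250 bases before to 50 bases after the annotated start. Of 27438 protein-coding genes with such a window, 14.2% held TGTCTC on either strand. The sites are shown because all 4 members hold one, with the motif in capitals and 10 bases on either side (TAIR10.1, strand of the gene). The site of GH3.1 begins at base 32 of the transcript, and those of GH3.2, GH3.3 and GH3.5 begin upstream, at positions -144, -116 and -47 from the start.
GH3.1: aaactccttcTGTCTCtctcctctct
GH3.2: gggtcccttaTGTCTCcattaactaa
GH3.3: tcttgtccccTGTCTCggtctaacga
GH3.5: ttccttattgTGTCTCtactctctac

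The 250 bases before the start are printed for GH3.2 and GH3.3, the pair closest in coding sequence and, as described further on, unlike in dose profile. Capitals mark the auxin response element TGTCTC, the palindromic G-box CACGTG, and the as-1 core, spelled TGACG. The stretch of GH3.2 is chr4:17579368-17579617 and that of GH3.3 is chr2:9866563-9866812, both read from TAIR10.1 along the strand of the gene.
GH3.2: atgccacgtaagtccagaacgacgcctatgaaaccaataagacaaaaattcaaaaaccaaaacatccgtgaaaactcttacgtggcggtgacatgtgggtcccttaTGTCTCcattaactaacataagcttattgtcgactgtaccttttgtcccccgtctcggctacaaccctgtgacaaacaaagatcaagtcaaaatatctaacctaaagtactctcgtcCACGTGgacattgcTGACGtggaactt
GH3.3: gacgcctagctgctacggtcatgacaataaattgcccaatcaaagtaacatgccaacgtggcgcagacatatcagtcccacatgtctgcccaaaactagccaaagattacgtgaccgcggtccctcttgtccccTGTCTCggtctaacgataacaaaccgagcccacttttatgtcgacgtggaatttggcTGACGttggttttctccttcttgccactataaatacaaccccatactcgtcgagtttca

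CACGTG was found in GH3.2 alone among the 4 members and in 7.68% of all windows. TGACG was found once each in GH3.1, GH3.2 and GH3.3 and in 23.1% of all windows. TGTCGG, another auxin response element, and GCCGCC, the GCC box, were found in none of the 4 members, and in 5.12% and 2.57% of all windows. No motif match overlapped another. A match is a description of letters, and binding was not measured.

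Libraries held between 1073063 and 3724564 counts. Levels are given in CPM, which are counts scaled to a common total, here by TMM (a trimmed mean of log ratios between libraries), and are compared only within a gene. The TMM factors fell with dose, from between 1.40 and 1.55 at 0 µM to between 0.681 and 0.767 at 100 µM. Replicates of a dose differed by more than sampling noise, with a chi-square of 3.72 to 12.6 per degree of freedom. Root and shoot markers were all detected at every dose. At 100 µM 3 of 6 root markers and 2 of 4 shoot markers were called lower than at 0 µM and none higher, where 14.9% of all genes were called lower and 23.8% higher. The summed level of the root markers ran from 83.6 to 122 CPM in the 0 µM libraries and from 39.2 to 47.9 CPM in the 100 µM libraries, and that of the shoot markers from 11471 to 12718 and from 6423 to 6936 CPM. Most of the shoot sum came from 1 marker, RBCS1A, with means of 9958 CPM at 0 µM and 6110 CPM at 100 µM. The part of these marker changes in the results was not tested, and in bulk RNA fewer cells of a type and less RNA per cell cannot be told apart.

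GH3.1 rose from almost no reads without CHX to one of the steepest increases of the table, and each dose was above the one before. At 0 µM replicates 1 to 3 gave 0.953, 0 and 0 CPM, so that its 3 reads all came from replicate 1. At 1 µM the libraries gave 4.27, 3.67 and 5.06 CPM. At 10 µM they gave 82.9, 92.4 and 110 CPM, and at 100 µM 374, 235 and 437 CPM. The 4 doses did not overlap in any library, and the means climbed from 0.318 ± 0.550 CPM (SD, n = 3) over 4.33 ± 0.697 and 95.1 ± 13.7 to 349 ± 103 CPM. Because the 0 µM group holds 3 reads, the increase is given as a ratio of summed counts with its exact 95% binomial interval. That interval takes reads as independent and leaves out the spread between replicates. PCR copies are among the reads, so the interval may be too narrow. The ratio was 9.99 (3.16 to 50.7), 218 (74.3 to 1060) and 792 (270 to 3842) at the 3 doses in rising order. Without 0 µM replicate 1 no read remained at 0 µM, and GH3.1 was then at least 5.49-fold, 120-fold and 435-fold higher, against a floor of 3 counts over the group.

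GH3.1 was called higher in all 6 comparisons by edgeR's quasi-likelihood test with Benjamini-Hochberg adjustment over all genes, where called means an adjusted p under 0.05 and a change of at least 2-fold. The adjusted p was 0.00114 at 1 µM, 4.3e-12 at 10 µM and 5.2e-14 at 100 µM against 0 µM. By fitted change it held rank 9 among the increases of the 12905 genes at 100 µM. From 1 to 10 µM it rose by 4.45 ± 0.30 on the log2 scale (SE, adjusted p = 6.0e-10 in edgeR) and from 10 to 100 µM by 1.88 ± 0.23 (adjusted p = 1.6e-05 in edgeR).

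GH3.2, also named BRU6 or YDK1, had reached its highest level at the lowest dose. At 0 µM replicates 1 to 3 gave 13.7, 13.8 and 19.7 CPM, and at 1 µM they gave 136, 128 and 107 CPM. At 10 µM they gave 99.1, 143 and 129 CPM, and at 100 µM 110, 65.0 and 57.9 CPM. Every CHX library was above every 0 µM library, while the CHX doses overlapped. Means were 15.7 ± 3.44, 124 ± 15.2, 124 ± 22.6 and 77.5 ± 28.0 CPM (SD, n = 3).

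In edgeR GH3.2 rose by 2.97 ± 0.25 on the log2 scale with 1 µM (adjusted p = 5.2e-09), by 2.98 ± 0.25 at 10 µM (adjusted p = 2.2e-09) and by 2.28 ± 0.26 at 100 µM (adjusted p = 1.8e-07). Between 1 and 10 µM the log2 difference was 0.0037, with a 95% interval from -0.44 to 0.45. The level at 100 µM was below that at 1 µM by a log2 difference of -0.69 ± 0.22 (adjusted p = 0.0194 in edgeR), short of the 2-fold limit, and below that at 10 µM by -0.69 ± 0.22 (adjusted p = 0.0577 in edgeR), so neither was called. Both were called without 100 µM replicate 1, the highest GH3.2 library of that dose, with log2 differences of -1.01 and -1.01. Scaling by total counts also brought the difference between 100 and 1 µM past the limit, at -1.38.

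GH3.3 rose with each dose to 10 µM, and its 100 µM libraries lay above those at 10 µM but spread widely. At 0 µM replicates 1 to 3 gave 16.5, 12.5 and 18.8 CPM, and at 1 µM they gave 56.6, 54.7 and 39.7 CPM. At 10 µM they gave 163, 174 and 148 CPM, and at 100 µM 521, 250 and 181 CPM. No 2 doses overlapped, although at 100 µM replicate 1 was far above the other replicates. Means were 15.9 ± 3.16, 50.3 ± 9.26, 162 ± 13.0 and 317 ± 180 CPM (SD, n = 3).

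In edgeR GH3.3 rose by 1.64 ± 0.32 on the log2 scale at 1 µM (adjusted p = 0.00045), by 3.32 ± 0.32 at 10 µM (adjusted p = 1.3e-08) and by 4.28 ± 0.32 at 100 µM (adjusted p = 2.7e-10). From 1 to 10 µM it rose by 1.69 ± 0.28 (adjusted p = 8.8e-05 in edgeR). The step from 10 to 100 µM was 0.96 ± 0.27 with an adjusted p of 0.0268 in edgeR, just short of 2-fold, and was not called. It was called when 100 µM replicate 2 or 3 was left out, at 1.11 and 1.24, and when libraries were scaled to reference genes, at 1.35. Without 100 µM replicate 1 the step was 0.41. The 11 reference genes had themselves a median log2 change of -0.52 between these doses under TMM scaling.

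GH3.5 changed least at the low end and rose at the higher doses. At 0 µM replicates 1 to 3 gave 6.04, 0 and 4.02 CPM (19, 0 and 9 reads), and at 1 µM they gave 1.78, 3.00 and 4.28 CPM. At 10 µM they gave 17.6, 7.59 and 11.5 CPM, and at 100 µM 37.3, 29.2 and 38.6 CPM. The 0 and 1 µM libraries overlapped, the 10 µM libraries were all above both, and the 100 µM libraries above all others. Means were 3.35 ± 3.07, 3.02 ± 1.25, 12.2 ± 5.03 and 35.0 ± 5.09 CPM (SD, n = 3).

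At 1 µM the log2 difference of GH3.5 from 0 µM was -0.35, with a 95% interval from -1.53 to 0.83, and without 0 µM replicate 1 it was 0.40, so that no direction can be given at this depth. GH3.5 rose by 1.66 ± 0.47 on the log2 scale at 10 µM (adjusted p = 0.0061 in edgeR) and by 3.17 ± 0.45 at 100 µM (adjusted p = 4.2e-06 in edgeR). The call at 10 µM was lost under scaling by total counts (0.81, adjusted p = 0.153) and without 10 µM replicate 1 (1.29, adjusted p = 0.053). Leaving out 0 µM replicate 1 raised the changes at 10 and 100 µM to 2.42 and 3.89. From 1 to 10 µM GH3.5 rose by 2.01 ± 0.47 (adjusted p = 0.0028 in edgeR) and from 10 to 100 µM by 1.51 ± 0.38 (adjusted p = 0.0146 in edgeR). The last call was lost without 10 µM replicate 2 (1.25), 10 µM replicate 3 (1.47) or 100 µM replicate 3 (1.43), and with libraries thinned to the smallest total (1.29).

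**Figure D1:**
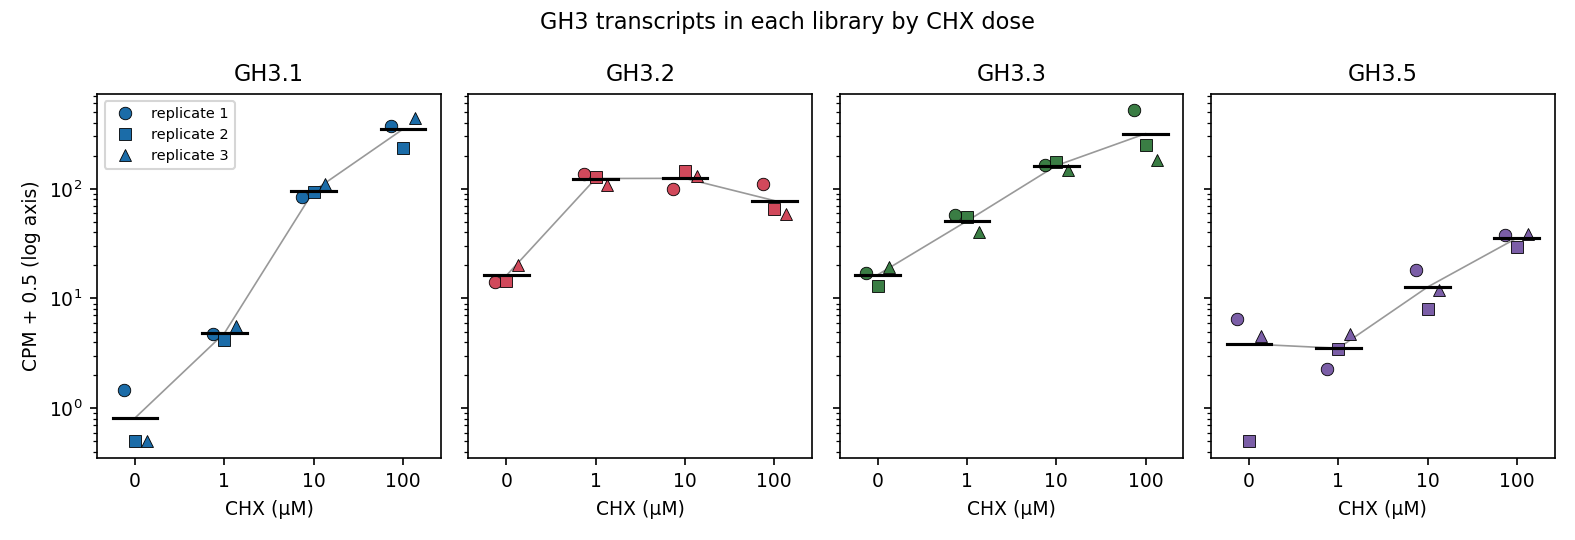
Level of each GH3 gene (CPM + 0.5, log axis) in each library against CHX dose, with symbols for replicates 1 to 3 and a bar for the mean of each dose. GH3.1 climbs from 0.318 to 349 CPM, GH3.2 is at 124 CPM at 1 and 10 µM and 77.5 CPM at 100 µM, GH3.3 climbs from 15.9 to 317 CPM, and GH3.5 is near 3 CPM at 0 and 1 µM and 35.0 CPM at 100 µM.

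Counted together, 3 of the 4 members were called higher at 1 µM than at 0 µM, where 13.5% of all genes were, and GH3.5 was the exception. All 4 were called higher at 10 µM, against 22.4% of all genes, and all 4 at 100 µM, against 23.8%. From 1 to 10 µM 3 members were called higher (12.2% of all genes) and from 1 to 100 µM 3 (15.4%), GH3.2 being left out both times. Only GH3.1 and GH3.5 were called higher from 10 to 100 µM, where 2.19% of all genes were. No member was called lower in any comparison. Genes were kept with at least 5 reads in 1 sample, and GH3.1, with 3, 0 and 0 reads at 0 µM, passed only through CHX libraries. Its calls as higher and its rank among the increases are thus not independent of that filter. Of all genes 3.12%, 12.1% and 14.9% were called lower at 1, 10 and 100 against 0 µM, 4.98% and 9.38% at 10 and 100 against 1 µM, and 2.48% at 100 against 10 µM. The median log2 change of the 4 members at 100 µM was 3.73, beside 0.021 over all genes. The joint test for any difference between doses passed for all 4, with adjusted p from 1.3e-14 for GH3.1 to 1.1e-06 for GH3.5 in edgeR, and for 52.9% of all genes.

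**Figure D2:**
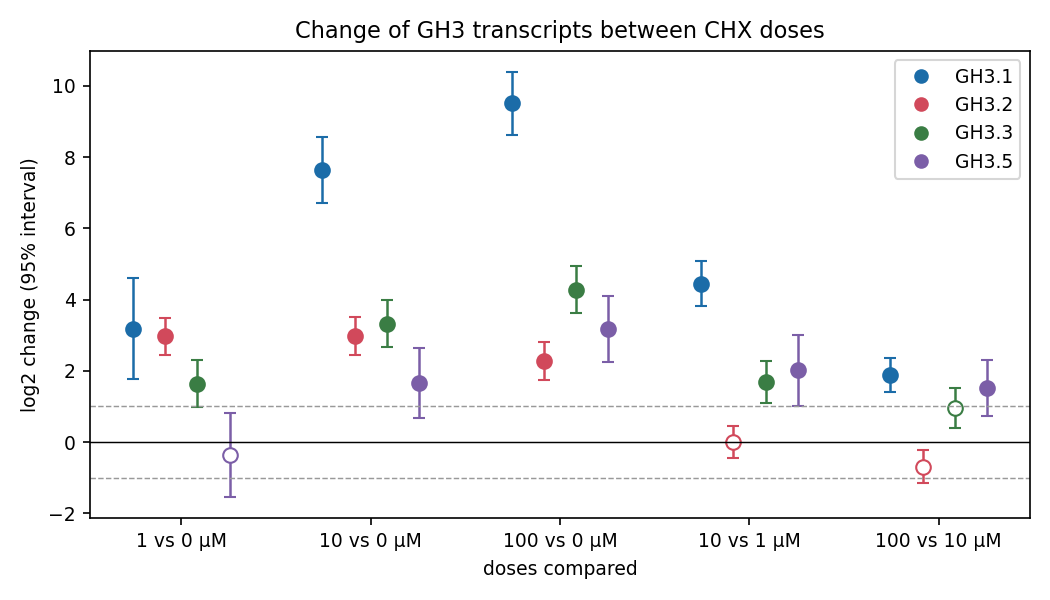
Fitted log2 change of each GH3 gene between doses with its 95% interval from edgeR, filled where called and open where not, with dashed lines at 2-fold. GH3.1 reaches 9.51 at 100 against 0 µM, and GH3.2 is the gene whose changes from 1 to 10 µM (0.0037) and from 10 to 100 µM (-0.69) are not above 0 by their intervals.

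The members did not keep their proportions as the dose rose. The ratio of a pair was taken within each library as log2 of (CPM + 0.5), which takes out the scaling between libraries save through the added 0.5. It was tested by an exact permutation test of the dose labels over the 12 libraries (15400 partitions, smallest possible p 6.5e-05). The statistic was the sum of squares between dose means, which takes no account of direction or dose order. The p is the share of partitions with a statistic at least as large, with Benjamini-Hochberg adjustment over the 6 pairs. GH3.2 against GH3.3, the pair closest in coding sequence, shifted most regularly. Its log2 ratio was -0.27, 0.13 and 0.07 at 0 µM and 1.26, 1.22 and 1.41 at 1 µM in replicates 1 to 3. It was -0.72, -0.28 and -0.20 at 10 µM and -2.24, -1.93 and -1.63 at 100 µM. The 1 µM libraries were thus all above, and the 100 µM libraries all below, those of the other doses (exact permutation p = 0.00013, adjusted p = 0.00078). Replicate 1 at 100 µM, the highest of its dose for both genes, did not stand apart in this ratio.

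GH3.1 against GH3.2 went from a mean log2 ratio of -4.49 ± 1.07 (SD, n = 3) at 0 µM and -4.68 ± 0.36 at 1 µM to -0.37 ± 0.22 at 10 µM and 2.17 ± 0.64 at 100 µM (exact permutation p = 0.00052, adjusted p = 0.00078). GH3.1 also gained on GH3.3, from -4.51 ± 0.88 at 0 µM to 0.24 ± 0.92 at 100 µM (exact permutation p = 0.00039, adjusted p = 0.00078). On GH3.5 it gained from -1.78 ± 1.62 to 3.26 ± 0.25 (exact permutation p = 0.00045, adjusted p = 0.00078). Ratios that involve GH3.1 or GH3.5 at 0 µM rest on few reads. GH3.2 against GH3.5 was 2.70 ± 1.92 without CHX and 5.20 ± 0.71, 3.35 ± 0.85 and 1.09 ± 0.48 at the rising doses (exact permutation p = 0.0164, adjusted p = 0.0196), and with 0.1 CPM added in place of 0.5 its adjusted p was 0.116. For GH3.3 against GH3.5 the mean ratios lay between 2.73 and 3.90, and no change with dose was detectable (exact permutation p = 0.512).

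**Figure D3:**
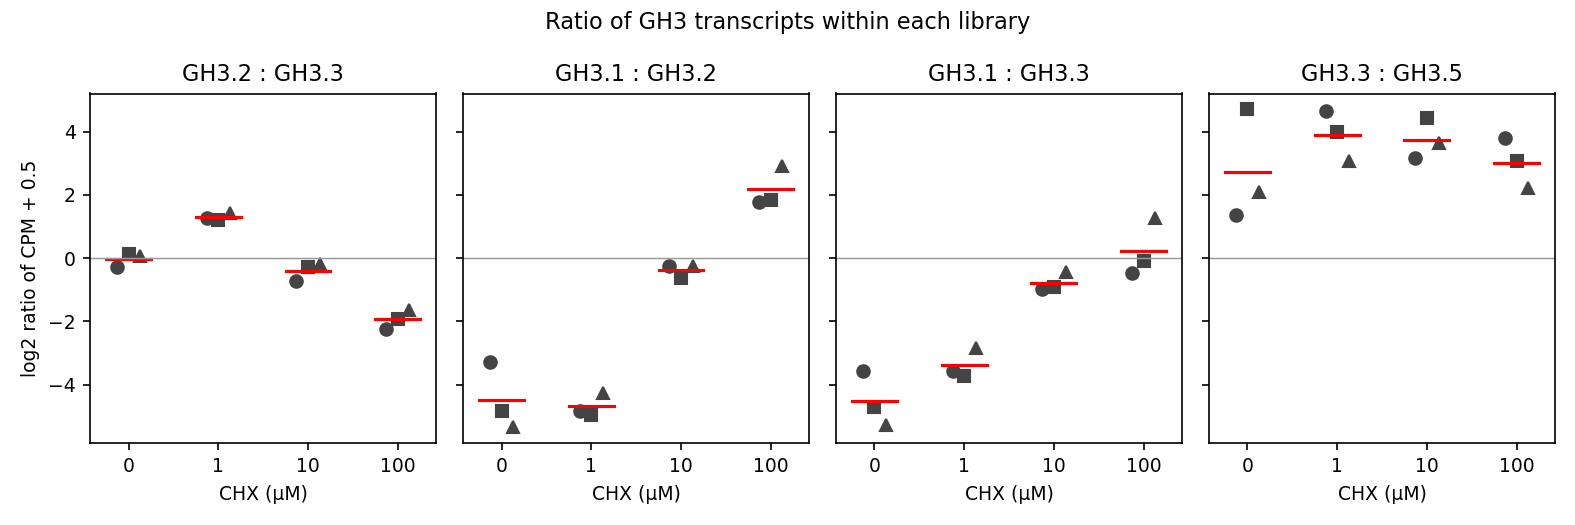
Within-library log2 ratio of CPM + 0.5 for 4 pairs of GH3 genes against CHX dose, with symbols for replicates 1 to 3 (circle, square, triangle) and a bar for the mean of each dose. GH3.2 to GH3.3 stands at 1.30 at 1 µM and -1.94 at 100 µM, whereas the ratio of GH3.3 to GH3.5 shows no ordered change.

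Each member had other genes with a like dose profile. Likeness was measured as the root mean square distance between log2 CPM profiles, each centred on its own mean over the 12 libraries, among the 7749 genes with a mean of at least 10 CPM in at least 1 dose. The 12 libraries share 4 doses, so the correlations given here describe the profiles and carry no test. Nearest to GH3.1 were ERF11, a repressor of the ethylene response factor family (distance 0.46, r = 0.991), NAC090, a NAC transcription factor (0.48, r = 0.992), and AT1G74440 (0.50, r = 0.992). ERF11 went from 8.88 ± 2.00 CPM at 0 µM to 38.3 ± 8.25, 805 ± 128 and 1899 ± 132 CPM.

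Nearest to GH3.2 was ABCB21, a plasma membrane auxin transporter (distance 0.27, r = 0.977), followed by AT3G03870 (0.30, r = 0.970) and PBL1, a receptor-like cytoplasmic kinase of immune signalling (0.33, r = 0.971). ABCB21 went from 28.0 ± 1.03 CPM at 0 µM to 201 ± 30.7, 183 ± 37.2 and 90.8 ± 15.6 CPM, so its mean, like that of GH3.2, was lower at 100 µM than at 1 or 10 µM. PBL1 went from 53.6 ± 2.79 to 528 ± 49.5, 505 ± 48.8 and 291 ± 28.8 CPM. Nearest to GH3.3 were MAPKKK16, a mitogen-activated protein kinase kinase kinase (0.35, r = 0.978), DAR3, a gene of the DA1-related family (0.38, r = 0.973), and HSFB2A, a class B heat shock factor (0.39, r = 0.971). MAPKKK16 went from 0.404 ± 0.453 CPM at 0 µM to 2.96 ± 1.8, 14.3 ± 0.490 and 18.5 ± 7.56 CPM, and DAR3 from no reads to 1.17 ± 0.710, 7.91 ± 0.375 and 12.2 ± 3.2 CPM. At such low levels the distance depends on the prior count of 2 that is added before the log. HSFB2A went from 20.9 ± 5.36 CPM at 0 µM to 66.4 ± 4.97, 183 ± 6.96 and 355 ± 49.7 CPM. Nearest to GH3.5 were AT3G58830 (0.49, r = 0.962), HAI1, a protein phosphatase 2C of abscisic acid signalling (0.56, r = 0.938), and AT1G45207 (0.56, r = 0.949). Genes with r above 0.95 numbered 516 for GH3.1, 256 for GH3.3, 69 for GH3.2 and 3 for GH3.5.

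**Figure D4:**
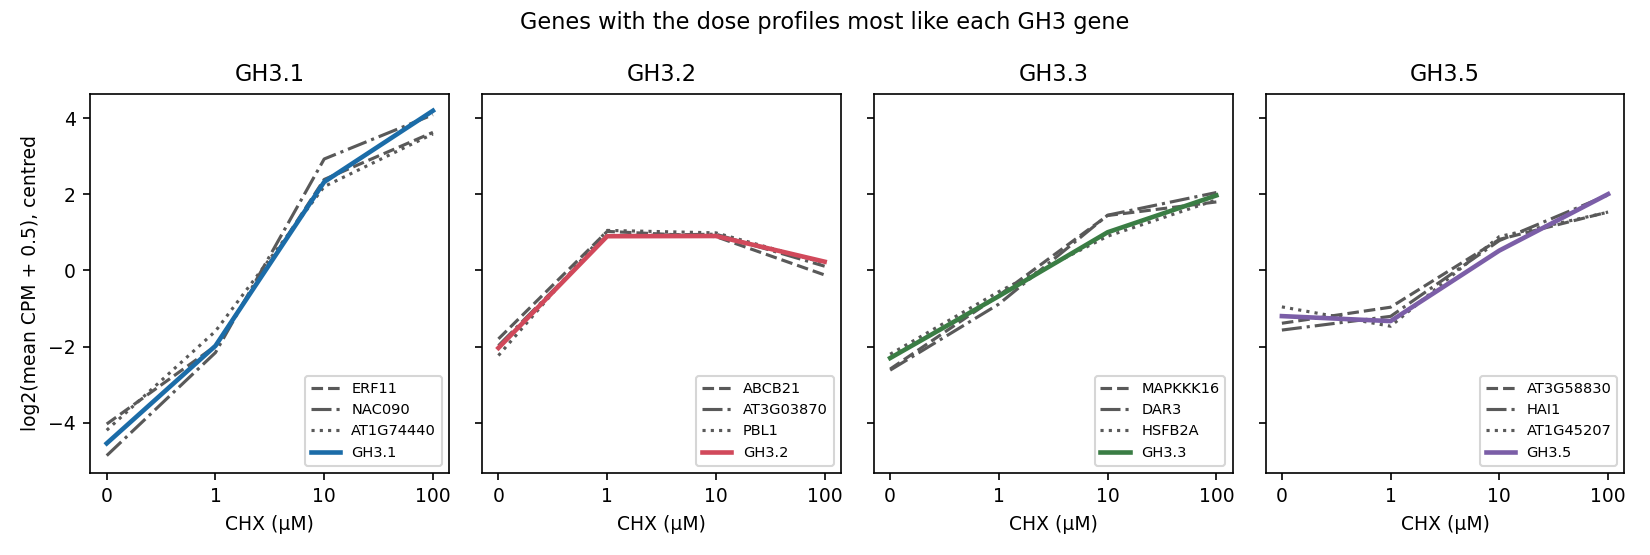
Log2 of the mean CPM + 0.5 per dose, centred on its own mean over the doses, for each GH3 gene (coloured) and the 3 genes with the nearest profile (grey). The 3 nearest genes to GH3.2, ABCB21 among them, follow its rise at 1 µM and its lower level at 100 µM.

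Of 16 other GH3 genes looked up, 6 were in the table. At 100 µM 1 of the 6 was called higher and 1 lower, beside 23.8% and 14.9% of all genes. Their median log2 change was -0.35, or -0.16 with GH3.9, under the floor in both groups, set to no change. PBS3, which makes a glutamate conjugate on the way to salicylic acid, stood at 0.361 ± 0.326 CPM without CHX and at 4.12 ± 1.54, 35.2 ± 16.3 and 21.9 ± 5.87 CPM at the rising doses. Its 100 µM libraries gave 25.4, 15.1 and 25.1 CPM against 0.636, 0 and 0.447 at 0 µM. With 3 reads at 0 µM the ratio of counts at 100 µM was 49.3 (exact 95% binomial interval 16.4 to 243, adjusted p = 8.1e-08 in edgeR). Like GH3.1, PBS3 passed the filter on reads only through CHX libraries, so its call and this p are not independent of that filter. GH3.10, a jasmonate-conjugating member of the family, fell from 21.8 to 8.27 CPM, by 1.38 ± 0.30 on the log2 scale (adjusted p = 0.00054 in edgeR). Its model overlaps another annotated gene, and under scaling to the reference genes its change was -0.89, no longer 2-fold.

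JAR1, which makes the active jasmonate conjugate, was at 17.3 CPM at 0 µM and 18.5 CPM at 100 µM (log2 difference 0.07 ± 0.31). GH3.17, another IAA-conjugating enzyme, was at 7.09 and 5.49 CPM (-0.32 ± 0.44). The GH3-like gene AT5G13360 was at 3.41 and 3.00 CPM (-0.38 ± 0.57), but at 10 µM it was at 13.1 CPM and called higher by 1.87 ± 0.43 on the log2 scale (adjusted p = 0.0011 in edgeR). GH3.9 had 2 reads in all at 0 µM and none at 100 µM, under the floor, and no change is given. The directions of JAR1, GH3.17 and AT5G13360 at 100 µM turned with the scaling or with 1 library left out, so none is read from them.

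The lists of auxin genes that follow are counted at 100 against 0 µM, where 23.8% of all genes were called higher and 14.9% lower with a median log2 change of 0.021, and nothing particular to a list is read from its count. Genes with fewer than 5 reads in every 0 µM library, among them YUC1, PIN6, ARF11, SAUR21 and SAUR24, passed the filter only through CHX libraries. Their calls as higher are not independent of that filter. ARF17 passed only through 0 µM libraries, and the same holds for its call as lower. Of 4 measured amidohydrolase genes, listed under auxin conjugate hydrolysis, 2 were called higher and none lower (median log2 change 0.90). Which conjugates their enzymes split was not measured. ILL6 rose by 3.42 ± 0.27 on the log2 scale (adjusted p = 4.5e-10 in edgeR) and IAR3 by 1.41 ± 0.23 (adjusted p = 2.0e-05 in edgeR). Of 5 genes of other auxin inactivation, 2 were called higher and 1 lower (median 1.88, or 0.27 with UGT84B1 set to no change). UGT84B1 had no read at 0 µM and 3 reads at 100 µM, not above the floor of 3 counts in either group. UGT74E2, a glucosyltransferase for the auxin precursor indole-3-butyric acid, rose by 2.97 ± 0.42 on the log2 scale, or 2.05 without 100 µM replicate 1, and IAMT1, which methylates IAA, by 1.88 ± 0.39. UGT74E2 was far higher at the lower doses, with 11.3 ± 2.76 CPM without CHX and 664 ± 105, 673 ± 130 and 90.1 ± 76.1 CPM at the rising doses. UGT84B1, a glucosyltransferase for IAA, had no read at 0 µM and means of 14.3 ± 5.55, 5.63 ± 0.863 and 0.504 ± 0.872 CPM at the rising doses. From 10 to 100 µM UGT74E2, UGT84B1 and UGT74D1 were called lower, 3 of the 5 genes, beside 2.48% of all genes. At 100 µM UGT84B1 and UGT74D1 held 3 reads each, and UGT74E2 gave 178, 49.9 and 42.7 CPM in replicates 1 to 3. UGT74D1, another glucosyltransferase for IAA, fell from 8.80 to 0.558 CPM, a ratio of counts of 0.0671 (exact 95% binomial interval 0.0135 to 0.205). Without 100 µM replicate 3 its fitted log2 change was -4.65 in place of -3.77.

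Among 11 measured genes of auxin synthesis, 5 were called higher and 2 lower at 100 µM, with a median log2 change of 1.01. YUC5 and YUC1, flavin monooxygenases of the last step to IAA, had the largest fitted increases of the list. YUC5 went from 2.75 ± 0.663 CPM at 0 µM to 10.9 ± 1.19, 79.1 ± 23.0 and 149 ± 11.9 CPM. YUC1 went from 0.255 ± 0.230 to 0.741 ± 0.781, 14.5 ± 0.479 and 49.1 ± 5.36 CPM, a ratio of counts of 174 at 100 µM (exact 95% binomial interval 47.6 to 1444). AMI1, an indole-3-acetamide hydrolase, rose by 1.01 ± 0.24 on the log2 scale with TMM scaling, but was at -0.036 under scaling by total counts. TAA1, the tryptophan aminotransferase of the step before, fell by 1.65 ± 0.37 and NIT1, a nitrilase, by 1.45 ± 0.21 on the log2 scale. Of 6 auxin receptors 2 were called lower and none higher (median -1.12), with TIR1 falling by 1.26 ± 0.20 and AFB3 by 1.15 ± 0.32 on the log2 scale.

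Of 14 measured Aux/IAA repressors, the short-lived proteins that hold ARF factors in check, 6 were called higher and none lower at 100 µM (median log2 change 0.95). IAA19 rose by 5.45 ± 0.23 on the log2 scale (adjusted p = 1.6e-14 in edgeR), IAA17 by 2.08 ± 0.18 and IAA13 by 1.65 ± 0.20. IAA19 gave 7.63, 7.52 and 5.37 CPM at 0 µM and 295, 279 and 330 CPM at 100 µM, with 36.0 ± 7.12 CPM at 1 µM and 133 ± 5.26 CPM at 10 µM. Of 13 ARF factors 2 were called higher and 4 lower (median -0.59), and 7 were not called. ARF9 rose by 1.09 ± 0.27 on the log2 scale, ARF3 fell by 1.49 ± 0.39 and ARF6 by 1.01 ± 0.23. ARF11 went from 2 to 9 reads (ratio 6.34, 1.31 to 60.3) and ARF17 from 20 to 1 (ratio 0.0704, 0.0017 to 0.44).

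Of 13 auxin transport genes 3 were called higher and 3 lower at 100 µM (median -0.31), beside 23.8% and 14.9% of all genes. ABCB4 rose by 3.93 ± 0.22 and PIN6 by 1.95 ± 0.71 on the log2 scale. PIN7, an efflux carrier, fell by 1.81 ± 0.26, ABCB1 by 1.42 ± 0.24 and LAX1, an influx carrier, by 1.41 ± 0.27 on the log2 scale. Of 16 SAUR genes, small auxin-up RNAs of another early auxin response family, 4 were measured, and 2 were called higher and 1 lower (median 1.96). SAUR36 fell by 2.82 ± 0.31 on the log2 scale, from 28.6 to 4.06 CPM. SAUR24 went from 4 to 20 reads and SAUR21 from 1 to 14 (ratio 19.7, 3.00 to 834), and these belong to a cluster of near-identical genes between which reads may be divided.

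Of the 31 called genes that the naming rule took from these lists, 9 lost their call at 100 µM when 1 library was left out. ARF9 was at 0.96 without 0 µM replicate 2 and 0.81 without 100 µM replicate 2. ARF6 was at -0.98, -0.86 and -0.89 without 0 µM replicate 1, 100 µM replicate 1 and 100 µM replicate 3. AFB3 was at -0.96 and -0.94 without 0 µM replicate 2 and 100 µM replicate 3, and AMI1 at 0.82 and 0.80 without 0 µM replicate 3 and 100 µM replicate 1. Those 4 genes lie close to the 2-fold limit, whereas ARF11, ARF17, PIN6, SAUR21 and SAUR24 rest on few reads. PIN6 was at 1.77, 1.59, 1.45 and 1.95 without 0 µM replicate 1 or 3 and 100 µM replicate 2 or 3. ARF17 was at -3.06 and -2.87 without 0 µM replicate 1 and 100 µM replicate 2, and SAUR21 at 3.23 and 3.47 without 0 µM replicate 1 or 3. SAUR24 was at 2.30, 2.17 and 2.23 without 0 µM replicate 1 or 3 and 100 µM replicate 1. ARF11 lost its call in 10 of 11 fits that left out 1 library. Scaling by total counts also ended the calls of IAR3, IAMT1 and IAA13, and scaling to the reference genes those of ARF3, TIR1, NIT1, ABCB1 and LAX1.

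**Figure D5:**
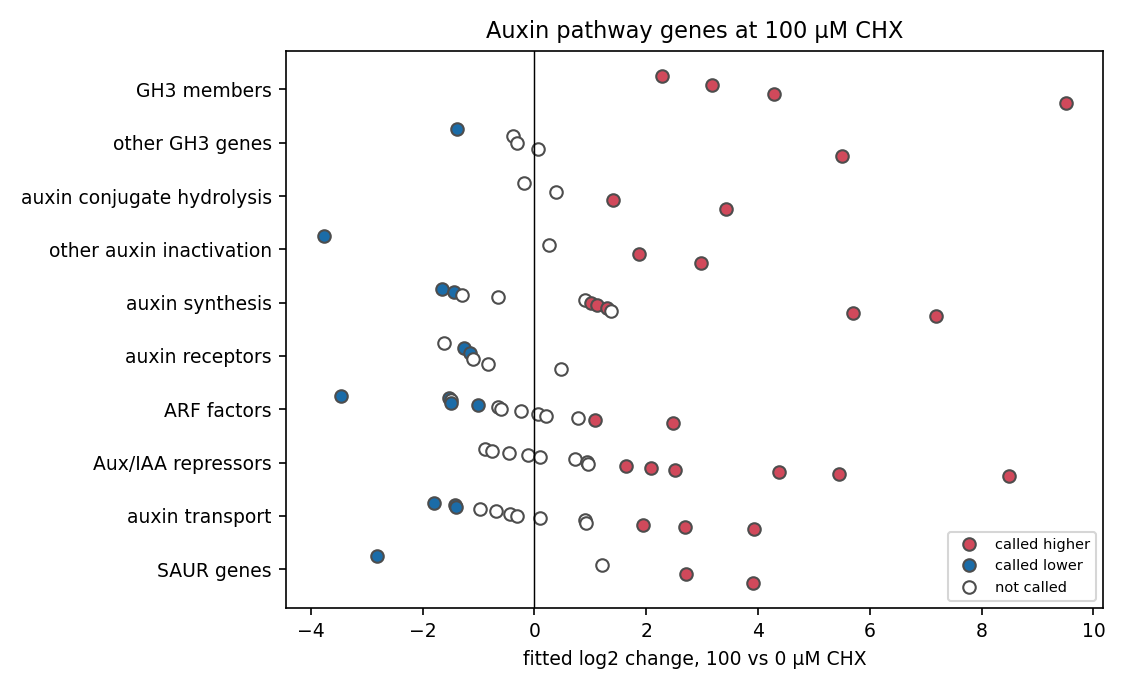
Fitted log2 change at 100 against 0 µM CHX for each measured gene of the auxin lists, 1 point per gene, red where called higher, blue where called lower and open where not called. All 4 GH3 members lie between 2.28 (GH3.2) and 9.51 (GH3.1), whereas the other GH3 genes run from -1.38 (GH3.10) to 5.50 (PBS3). GH3.9 and UGT84B1, with at most 3 reads in either group, are left out, and points of genes with almost no reads in 1 group depend on the prior count of the fit.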

How the data were processed

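RNA was sequenced by bulk MARS-seq. Per the labels, the authors used bcl2fastq 2.17.1.14, cutadapt 1.8.3, STAR, HTSeq and DESeq2, with Araport11 gene models, and kept genes with at least 5 reads in 1 sample. The deposited counts are raw reads per gene, named as without a filter on molecular identifiers, so PCR copies are included. The authors' normalized signal (counts over a size factor) and regularized log2 values were not used in tests. The study's text links this deposit to another of its data sets, and the labels, which name CHX, were followed.

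Counts were fitted with edgeR 4.0.16 (R 4.3.3, TMM, quasi-likelihood, 12 libraries in 1 model with 4 dose means) and checked with DESeq2 1.42.0. The 6 pairs of doses were compared, and fits were tested on simulated data. Genes were named as the 4 members, the called members of each list at 100 µM (at most 3 per direction by smallest p, all measured other GH3 genes) and the 3 genes nearest each member. The values of 1 gene so chosen are not reported here. The members and lists were chosen with earlier results of these data known. The replicate numbers were not used as pairs in the main fit or the permutation tests. Same-numbered libraries were somewhat more alike than others, and whether the numbers mark pairs was not tested. Coordinates and sequences are from RefSeq TAIR10.1, in which 12831 of 12905 identifiers had a locus tag, and these models may differ from those used for counting. Alternatives were another scaling, filter, fit, depth or threshold, and each library left out.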

Additional observations from a re-analysis of the deposited data

How the results depend on the processing

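The number of members called higher was the same in all 6 comparisons under scaling by RLE factors, another filter, the replicate block, a fit of only the doses compared and DESeq2. Between 100 and 10 µM it was 3 in place of 2 with reference genes and without the fold limit, 1 in libraries thinned to the smallest total and at an adjusted p under 0.01, and 1 to 3 with 1 library left out. Between 10 and 0 µM it was 3 in place of 4 with total counts, and 3 to 4 with 1 library left out. The GH3.5 change between 10 and 0 µM was 0.81 with total counts and 1.29 to 2.42 with 1 library left out. Its change between 100 and 10 µM was 1.29 when thinned and 1.25 to 1.89 with 1 library left out, and between 1 and 0 µM -0.73 to 0.40. GH3.2 between 10 and 1 µM was -0.51 with total counts, -0.10 with reference genes and -0.12 to 0.14 with 1 library left out. Between 100 and 1 µM it was -1.38 with total counts and -1.01 to -0.52 with 1 library left out, and between 100 and 10 µM -1.01 to -0.52. GH3.3 between 100 and 10 µM was 1.35 with reference genes and 0.41 to 1.24 with 1 library left out. At 100 against 0 µM total counts gave 8.51, 1.26, 3.27 and 2.13 for GH3.1, GH3.2, GH3.3 and GH3.5, all called. The cause of these shifts was not tested.

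Of the list genes at 100 µM, AMI1 was -0.036 and JAR1 -0.98 with total counts, GH3.17 0.15 and AT5G13360 0.11 with reference genes. GH3.17 and AT5G13360 were called lower with total counts, at -1.36 and -1.41 (adjusted p = 0.0095 and 0.0366 in edgeR). With 1 library left out JAR1 ran from -0.050 to 0.24 and AT5G13360 from -1.09 to 0.21. Deviations from dose means correlated at median 0.076 in same-numbered libraries (8 of 18 pairs above 0.1) and -0.073 in others (4 of 36). With the replicate block GH3.1 at 100 against 0 µM changed by 9.51 and no member call changed.

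Total counts moved the median of all genes to -0.31, -0.82 and -1.01 at 1, 10 and 100 against 0 µM, -0.49 at 10 and -0.71 at 100 against 1 µM, and -0.18 at 100 against 10 µM. Reference genes, 11 in number, moved it to 0.21, 0.51, -0.14, 0.28 and 0.45 for the same comparisons without 10 against 0 µM. Under TMM scaling these 11 genes were not level, with a median log2 change of -0.74 and 2 called lower at 100 against 0 µM. The share of calls that were higher was 81.3%, 64.9% and 61.5% at 1, 10 and 100 against 0 µM, 71.1% and 62.1% at 10 and 100 against 1 µM, and 46.8% at 100 against 10 µM. It became 52.0%, 27.6%, 24.7%, 28.6%, 22.1% and 22.2% with total counts, and 81.6%, 60.5%, 79.1% and 89.5% at 100 against 0, 10 against 1, 100 against 1 and 100 against 10 µM with reference genes. Higher calls at 100 against 10 µM numbered 282, and 142 with total counts, 1343 with reference genes, 631 without the fold limit and 180 without 10 µM replicate 2. Lower calls there numbered 320, and 498, 158, 484 and, at an adjusted p under 0.01, 207, with 592 without 100 µM replicate 1. Lower calls at 1 against 0 µM numbered 403, and 1249 with total counts, 217 with reference genes, 991 without the fold limit, 211 at an adjusted p under 0.01, and 267 and 241 without 0 µM replicate 1 and 1 µM replicate 3. Lower calls at 10 against 0 µM numbered 1561, and 4935 and 2553 with total counts and without the fold limit, and at 10 against 1 µM 643, and 2426 and 1562. Lower calls at 100 against 0 µM numbered 1927, and 5634 with total counts and 926 with reference genes, and at 100 against 1 µM 1210, and 3857, 700 and, without the fold limit, 2061. Higher calls with total counts were 1879 for 2890 at 10 against 0, 1846 for 3072 at 100 against 0, 974 for 1579 at 10 against 1 and 1096 for 1983 at 100 against 1 µM.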
